A study of Mus musculus with 416 samples.

Results

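The stretch of mouse chromosome 17 from 24 to 30 Mb (build GRCm38) holds 120 bins of 50 kb, and all 120 had 10 or more measured cells in each of the 6 groups. They are 120 of the 46015 autosomal bins that met this rule. Particular attention went to the windows from 25 to 26 and from 27 to 28 Mb (20 bins each) and to the bins at the midpoints of 7 genes, Ift140, Lmf1, Rab11fip3, Grm4, Rps10, Ilrun and Anks1. Both windows were chosen because their replicated share was lower in Rif1-depleted than in control cells of the 8-cell stage, so their 8-cell difference is given as a description and supports nothing further. Values of the 4-cell and morula stages did not enter that choice.

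Replication states were recorded in single blastomeres of (C57BL/6J x CBA) x DBA/2J mouse embryos. Zygotes had been injected with 20 µM of an siRNA against Rif1 (siRif1) or of a control siRNA (siCont) 17 to 18 hours after hCG and grown on until embryos had 4 cells, 8 cells or had formed morulae. Tables held 51 siRif1 and 49 siCont cells of 4-cell embryos, 50 siRif1 and 60 siCont cells of 8-cell embryos, and 45 siRif1 and 44 siCont cells of morulae. Both groups thus carry an injected siRNA and no altered allele, and how far Rif1 was depleted in single cells was not analysed here. The labels name no embryo for a cell, so each group counts as 1 sample and no p-values are given.

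Each cell has a state of replicated or not replicated per bin, and the replicated share of a bin is the percentage of its measured cells that had copied it. The median cell had replicated 51.4% of its bins in siRif1 and 43% in siCont at the 4-cell stage, 43.4 and 48.5% at the 8-cell stage, and 47 and 47.6% at the morula stage. Cells of the 8-cell stage reached at most 66.5% in siRif1 and 97.4% in siCont. Because groups thus differed in progress through S phase, a shift was computed as the share in siRif1 minus that in siCont after each group was centred on its mean over all used bins. A negative shift, called later here, means relatively fewer replicated siRif1 cells. One siRif1 cell of the 4-cell stage had no measured bin in the region, which leaves 50 cells there. All other cells were measured at every one of the 120 bins.

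Eukaryotic chromosomes are copied in a set order, in which gene-dense, active domains tend to replicate early in S phase and gene-poor domains late. Rif1 binds chromatin and brings protein phosphatase 1 to replication origins, where the phosphatase opposes the kinase that fires them. In many cell types its loss disturbs the order of early and late domains. Early mouse embryos are known to acquire a defined order only gradually over the cleavage divisions.

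The region is gene-dense. It holds the midpoints of 179 protein-coding genes in 96 of its bins, with 49, 48, 23, 18, 24 and 17 in its consecutive 1-Mb windows, against a median of 5 over 2317 windows of the autosomes. Promoters of its genes were also rich in the dinucleotide CpG. Over the 250 bases before the start of transcription, 199 promoters of 149 of these genes had a median of 15 CpG, against a median of 10 over 20077 promoters of autosomal protein-coding genes in the RefSeq table used. At least 1 CpG was found in 99.0% of the region's promoters and in 93.7% of all of them. A base content over 50% G and C together with a CpG count over 0.6 of that expected from the C and G content was found for 57.8% of the region's promoters and for 42.4% of all of them.

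Of the 7 genes, 6 had promoters in that table, and Grm4 had none. The promoters of Lmf1, Rps10 and Anks1 are shown because these genes lie in both windows and their promoters differ in CpG content. Sequences are from RefSeq (GRCm38.p6), run 5′ to 3′ on the strand of the gene, and have CpG in capitals. The motif CG reads the same on both strands. They lie at chr17:25578924-25579173 (plus strand, 19 CpG), chr17:27635245-27635494 (minus strand, 26 CpG) and chr17:27909056-27909305 (plus strand, 34 CpG).
Lmf1: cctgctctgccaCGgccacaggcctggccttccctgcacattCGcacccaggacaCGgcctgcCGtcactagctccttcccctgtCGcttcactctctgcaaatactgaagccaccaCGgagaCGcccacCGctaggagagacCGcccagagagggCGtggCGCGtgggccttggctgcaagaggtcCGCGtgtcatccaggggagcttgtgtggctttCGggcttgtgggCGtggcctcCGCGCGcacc
Rps10: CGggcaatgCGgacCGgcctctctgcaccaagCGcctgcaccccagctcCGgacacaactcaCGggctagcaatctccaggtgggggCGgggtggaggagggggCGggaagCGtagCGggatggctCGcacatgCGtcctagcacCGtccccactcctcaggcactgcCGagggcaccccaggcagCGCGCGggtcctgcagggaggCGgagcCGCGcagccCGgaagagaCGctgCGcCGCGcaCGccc
Anks1: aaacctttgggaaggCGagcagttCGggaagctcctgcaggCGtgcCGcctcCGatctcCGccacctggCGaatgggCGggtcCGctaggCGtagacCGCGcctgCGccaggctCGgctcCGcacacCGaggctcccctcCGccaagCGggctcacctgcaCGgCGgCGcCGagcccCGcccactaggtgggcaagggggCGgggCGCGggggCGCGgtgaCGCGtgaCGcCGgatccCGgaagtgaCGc
The states were measured in 50-kb bins, so they say nothing about a promoter by itself. The Rab11fip3 table entries included one start with 27 CpG and another with 4 CpG. Anks1 also had another entry, not shown, at chr17:27909093-27909342 with 36 CpG.

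The region was early in control embryos, more so in morulae than at the 4-cell stage. In Rif1-depleted embryos it was late at the 8-cell stage, the stage from which the windows were chosen. In siRif1 cells the mean replicated share of the 120 bins was 57.3% at the 4-cell stage, 30.3% at the 8-cell stage and 61.8% at the morula stage. In siCont cells it was 55.9, 68.4 and 78.4% at the same stages. Means over all used bins were 50.5, 43 and 49.98% in siRif1 and 46.5, 49.2 and 49.4% in siCont. Relative to these, the region stood at 6.79, -12.7 and 11.8 points in siRif1 and at 9.36, 19.2 and 29 points in siCont. Ranked among all used bins, the region lay at a mean percentile of 66.4 in siRif1 and 72 in siCont at the 4-cell stage, 23.2 and 79.6 at the 8-cell stage, and 70.6 and 85.8 at the morula stage. At the 8-cell stage it was therefore in the later part of the genome in siRif1 cells and in the early part in siCont cells. The 8-cell values of both groups entered the choice of the windows, so they only describe that contrast.

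**Figure D1:**
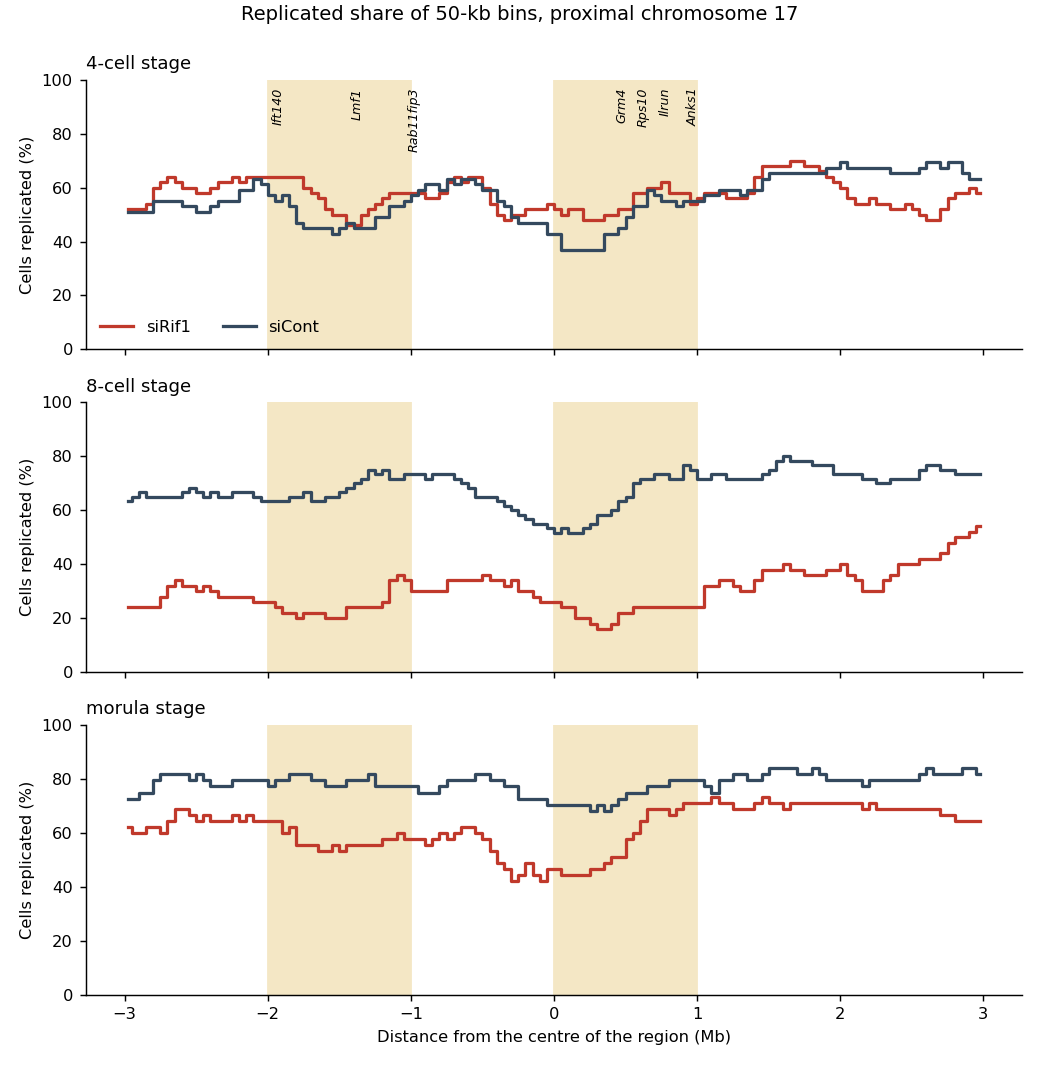
Replicated share (percent of measured cells) of each 50-kb bin from 24 to 30 Mb of chromosome 17, against distance from the centre of the region in Mb, for siRif1 (red) and siCont cells (dark blue) at the 3 stages. Shaded bands mark the windows from 25 to 26 and from 27 to 28 Mb, and gene names stand over their midpoint bins. At the 4-cell stage the curves cross, but from 29 to 30 Mb siRif1 (48 to 60%) lies below siCont (63.3 to 69.4%). At the 8-cell stage siRif1 lies below siCont in every bin (16 to 54% against 51.7 to 80%), and at the morula stage the gap is smaller.

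The 8-cell difference was not confined to the windows from 25 to 26 and 27 to 28 Mb. All 120 bins had negative shifts, from -46.5 to -13.2 points with a mean of -32.0 points, and 80 of them were at least 30 points later. Over all used bins 1.06% were at least 30 points later and 47.9% had a negative shift. Since the windows were chosen from this contrast, nothing is read from these counts. The 80 bins were 16.5% of the 486 such bins of the autosomes, of which the region makes up 0.261%. The bins nearest to the 30-point limit had shifts of -30.2 and -29.8 points.

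Among 2317 windows of 1 Mb, the shifts of the windows from 25 to 26 and 27 to 28 Mb ranked 3 and 4 from the lowest at the 8-cell stage, at -37.3 and -35.6 points. The next lowest window of the genome, with -33.7 points, was the adjoining one from 28 to 29 Mb, and the window from 24 to 25 Mb ranked 7 with -31.3 points. Windows from 26 to 27 and 29 to 30 Mb ranked 29 and 34, with -27.7 and -26.2 points.

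Bins at least 30 points later without a break ran from 24.6 to 25.9 Mb (26 bins) and from 27.25 to 28.45 Mb (24 bins). Of 122 such runs on the autosomes, one of 38 bins on chromosome 10 was longer than these, and all others were shorter. Negative shifts continued over all 262 used bins from 22.55 to 36.25 Mb at the 8-cell stage, a stretch of 13.7 Mb. Unused bins were passed over. Toward the centromere the mean shifts were 1.92 points from 22 to 23 Mb and -28.2 points from 23 to 24 Mb. The window from 22 to 23 Mb was late in both groups, at -34.1 points in siRif1 and -36.1 points in siCont relative to all used bins. Its share was too low for a shift near -28.2 points to arise. From 23 to 24 Mb the groups stood at -21 and 7.13 points. Away from the centromere the shift was -6.85 points from 30 to 31 Mb and lay between -15.7 and -23.4 points in the windows from 31 to 36 Mb. Over the 1630 other used bins of chromosome 17 the shift averaged -1.50 points, and 50.4% of these bins were negative.

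**Figure D2:**
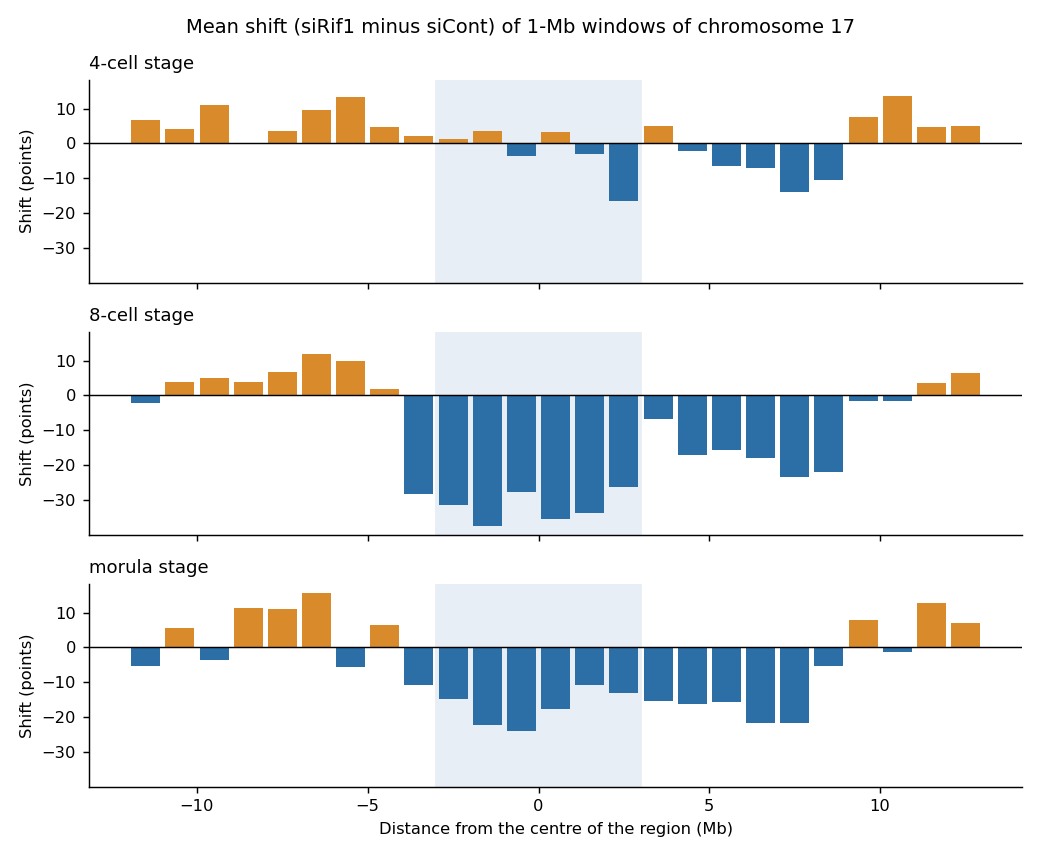
Mean shift (siRif1 minus siCont, points) of consecutive 1-Mb windows of chromosome 17 against distance from the centre of the region in Mb, at the 3 stages. The shaded band is the region from 24 to 30 Mb, and bars below 0 are later in siRif1. At the 8-cell stage the bars drop from 1.92 points from 22 to 23 Mb, a window late in both groups, to -28.2 points from 23 to 24 Mb.

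Counts of cells describe the 8-cell difference that the windows were chosen from, so they are no unbiased estimate of its size. The window from 25 to 26 Mb was replicated over most of its bins in 9 of 50 siRif1 cells (18%, exact 95% interval 8.58 to 31.4%) and 39 of 60 siCont cells (65%, interval 51.6 to 76.9%). The window from 27 to 28 Mb was so in 12 of 50 siRif1 cells (24%, interval 13.1 to 38.2%) and 37 of 60 siCont cells (61.7%, interval 48.2 to 73.9%). Intervals cover counting error only. The siRif1 interval lay wholly below that of siCont at 110 of the 120 bins at the 8-cell stage, against 5.35% of all used bins. This was so at 0 bins at the 4-cell stage, against 0.013%, and at 3 bins at the morula stage, against 0.541%. This comparison uses uncentred shares, whose means over all used bins were 43% in siRif1 and 49.2% in siCont.

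The genes of the window from 25 to 26 Mb include Ift140, a subunit of the intraflagellar transport machinery that builds cilia, and Lmf1, a protein of the endoplasmic reticulum needed for the maturation of lipases. The bin of Ift140 (gene at chr17:25016083-25099499) was replicated in 12 of 50 siRif1 cells (24%, interval 13.1 to 38.2%) and 38 of 60 siCont cells (63.3%, interval 49.9 to 75.4%) at the 8-cell stage. The bin of Lmf1 (chr17:25579174-25662831) was replicated in 12 of 50 siRif1 cells and 42 of 60 siCont cells (70%, interval 56.8 to 81.2%). Their shifts were -33.2 and -39.8 points. Rab11fip3, an effector of the small GTPase Rab11 in membrane recycling and cell division, spans the end of this window (chr17:25989036-26070077), and its midpoint lies in the bin beyond 26 Mb. That bin was replicated in 15 of 50 siRif1 cells (30%, interval 17.9 to 44.6%) and 44 of 60 siCont cells (73.3%, interval 60.3 to 83.9%), which gives -37.2 points after centring.

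The window from 27 to 28 Mb holds the midpoints of the other four genes. Grm4 encodes a metabotropic glutamate receptor (chr17:27422387-27513826) and was replicated in 11 of 50 siRif1 cells (22%, interval 11.5 to 36%) and 38 of 60 siCont cells at the 8-cell stage, a shift of -35.2 points. Rps10, a protein of the small ribosomal subunit (chr17:27630415-27635244), was replicated in 12 of 50 siRif1 and 43 of 60 siCont cells. Ilrun, a regulator of inflammatory and lipid responses (chr17:27751232-27820542), was replicated in 12 of 50 siRif1 and 44 of 60 siCont cells (shift -43.2 points). Anks1, an ankyrin-repeat adaptor of Eph receptor signalling (chr17:27909304-28062779), was replicated in 12 of 50 siRif1 and 45 of 60 siCont cells (75%, interval 62.1 to 85.3%), with the lowest shift of the 7 genes, -44.8 points. At all 7 genes, which were chosen with these values known, the siRif1 interval lay wholly below the siCont interval at this stage, beside 110 of the region's 120 bins and 5.35% of all used bins.

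The intervals of both groups overlapped at all 7 genes at the 4-cell stage. Ift140 was replicated in 32 of 50 siRif1 and 27 of 49 siCont cells, Lmf1 in 23 and 22, Rab11fip3 in 29 and 28, and Grm4 in 26 and 22. Rps10 was replicated in 29 siRif1 and 26 siCont cells, Ilrun in 31 and 27, and Anks1 in 27 and 27. Shifts lay between -5.02 points at Anks1 and 4.98 points at Ift140, with a median of 1.02 points. A share of 46%, as at Lmf1 in siRif1, had an interval of 31.8 to 60.7%, so differences well inside such a width were not detectable with these cell numbers.

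At the morula stage all 7 genes had negative shifts of smaller size. Lmf1 was replicated in 25 of 45 siRif1 cells (55.6%, interval 40 to 70.4%) and 35 of 44 siCont cells (79.5%, interval 64.7 to 90.2%), the largest difference among them with a shift of -24.6 points. Grm4 was replicated in 23 of 45 siRif1 and 32 of 44 siCont cells (shift -22.2 points) and Rab11fip3 in 26 of 45 and 34 of 44 cells (shift -20.1 points). The intervals of the groups overlapped at all 7 genes. Ift140 had a shift of -15.7 points, and Rps10, Ilrun and Anks1 had shifts of -11.1, -8.97 and -9.02 points. The 3 genes with the lowest shifts at the 8-cell stage (Anks1, Ilrun and Rps10) therefore had the shifts nearest to 0 at the morula stage. These neighbouring genes were in the same state in every siRif1 cell of the 8-cell stage, so they are not separate measurements. Whether the order of the genes differs between stages beyond counting error was not tested.

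**Figure D3:**
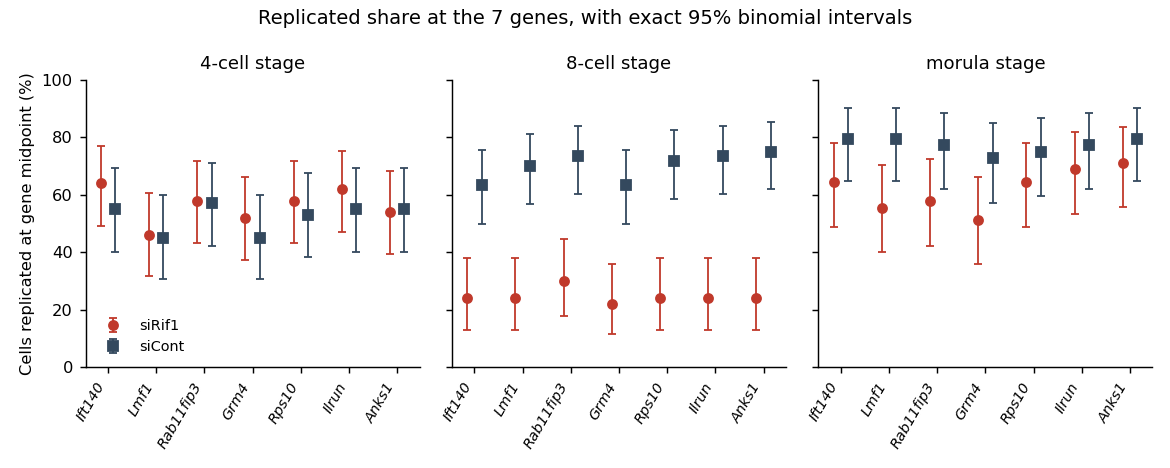
Percent of measured cells replicated at the midpoint bin of each of the 7 genes, ordered along the chromosome, for siRif1 (red circles, left of each pair) and siCont cells (dark blue squares). Bars are exact 95% binomial intervals and cover counting error only. Groups overlap at all genes at the 4-cell and morula stages, and at the 8-cell stage siRif1 values of 22 to 30% lie below siCont values of 63.3 to 75%.

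The 8-cell difference, from which the windows and genes were chosen, was also described within single cells. All 7 genes were replicated at the 8-cell stage in 5 of 50 siRif1 cells (10%, interval 3.33 to 21.8%) and 30 of 60 siCont cells (50%, interval 36.8 to 63.2%). None of the 7 was replicated in 27 siRif1 cells (54%, interval 39.3 to 68.2%) and 7 siCont cells (11.7%, interval 4.82 to 22.6%). Rps10, Ilrun and Anks1 were in the same state in every siRif1 cell, replicated together in 12 and unreplicated together in 38. In siCont cells they were replicated together in 40, unreplicated together in 12 and mixed in 8. Lmf1 and Rps10, which lie in different windows, were both replicated in 8 siRif1 cells, singly in 4 and 4, and neither in 34. In siCont cells both were replicated in 38, Lmf1 alone in 4, Rps10 alone in 5 and neither in 13. Neighbouring genes share runs of state, so they are not separate measurements.

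The same count changed less at the other stages. All 7 genes were replicated in 15 of 50 siRif1 and 15 of 49 siCont cells at the 4-cell stage. At the morula stage this was so in 13 of 45 siRif1 cells (28.9%, interval 16.4 to 44.3%) and 25 of 44 siCont cells (56.8%, interval 41 to 71.7%). Morula cells of siRif1 often held a mixed region, with 26 of 45 cells replicated at some but not all of the genes, against 16 of 44 siCont cells.

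Whole windows were counted in the same way, and their 8-cell counts again only describe the contrast they were chosen from. The windows from 25 to 26 and 27 to 28 Mb were both unreplicated over most bins at the 8-cell stage in 36 of 50 siRif1 cells (72%, interval 57.5 to 83.8%) and 16 of 60 siCont cells (26.7%, interval 16.1 to 39.7%). Both were replicated in 7 siRif1 cells and 32 siCont cells. Their states matched in 86% of siRif1 and 80% of siCont cells at the 8-cell stage, 72 and 81.6% at the 4-cell stage, and 66.7 and 81.8% at the morula stage. The exact intervals of these shares overlapped at each stage.

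The 8-cell gap was also broken down by progress through S phase, which only describes the difference that the windows were chosen from. Cells were classed by the percent replicated of the other autosomes. Among cells at 20 to 40%, the window from 25 to 26 Mb was replicated in 3 of 17 siRif1 and 9 of 17 siCont cells. Among cells at 40 to 60% it was replicated in 4 of 21 siRif1 cells (19%, interval 5.45 to 41.9%) and 14 of 24 siCont cells (58.3%, interval 36.6 to 77.9%), and among cells at 60 to 80% in 2 of 9 siRif1 and 11 of 13 siCont cells. The siRif1 share was similar over these classes (17.6, 19 and 22.2%), while the siCont share was 52.9, 58.3 and 84.6%. In the class at 60 to 80% progress was not equal, with a mean of 63.6% in siRif1 and 68.3% in siCont. The window from 27 to 28 Mb was replicated in 5 of 17, 6 of 21 and 1 of 9 siRif1 cells and in 11 of 17, 12 of 24 and 9 of 13 siCont cells of the same classes. Each class holds few cells, and the intervals of the groups overlapped in all 6 comparisons.

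Among morula cells the window from 25 to 26 Mb was replicated in 6 of 16, 6 of 13 and 10 of 14 siRif1 cells (37.5, 46.2 and 71.4%) and in 5 of 9, 20 of 25 and 7 of 8 siCont cells (55.6, 80 and 87.5%) of the classes at 20 to 40, 40 to 60 and 60 to 80%. The window from 27 to 28 Mb was replicated in 9 of 16, 6 of 13 and 6 of 14 siRif1 cells (56.3, 46.2 and 42.9%) and in 5 of 9, 18 of 25 and 7 of 8 siCont cells (55.6, 72 and 87.5%). The siRif1 share was thus the lower one in all of these classes but the earliest for the second window, and the intervals overlapped in all 6 comparisons.

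A lead was computed for each cell as the percent of the 120 bins replicated minus the percent of the other autosomes replicated. The 8-cell lead was -64.1 points at its lowest, -20.2 at its median and 75.3 at its highest in siRif1 cells, and -46.8, 22.4 and 86.9 points in siCont cells. The region was ahead of the other autosomes in 13 of 50 siRif1 cells (26%, interval 14.6 to 40.3%) and 43 of 60 siCont cells (71.7%, interval 58.6 to 82.5%). The ranges overlapped, and some siRif1 cells with a fully replicated region were seen (5 of 50, against 19 of 60 siCont cells). The region was wholly unreplicated in 11 siRif1 and 3 siCont cells.

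At the 4-cell stage the region was ahead in 26 of 50 siRif1 and 28 of 49 siCont cells, with median leads of 8.09 and 10.02 points. At the morula stage it was ahead in 29 of 45 siRif1 cells (64.4%, interval 48.8 to 78.1%) and 37 of 44 siCont cells (84.1%, interval 69.9 to 93.4%), with median leads of 12.8 and 33.2 points. A fully replicated region was found in 3 morula cells of siRif1 and 16 of siCont. Among 364 consecutive windows of 6 Mb on the autosomes, the mean lead of the region ranked 84 from the top in siRif1 and 51 in siCont at the 4-cell stage, 337 and 19 at the 8-cell stage, and 70 and 8 at the morula stage.

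**Figure D4:**
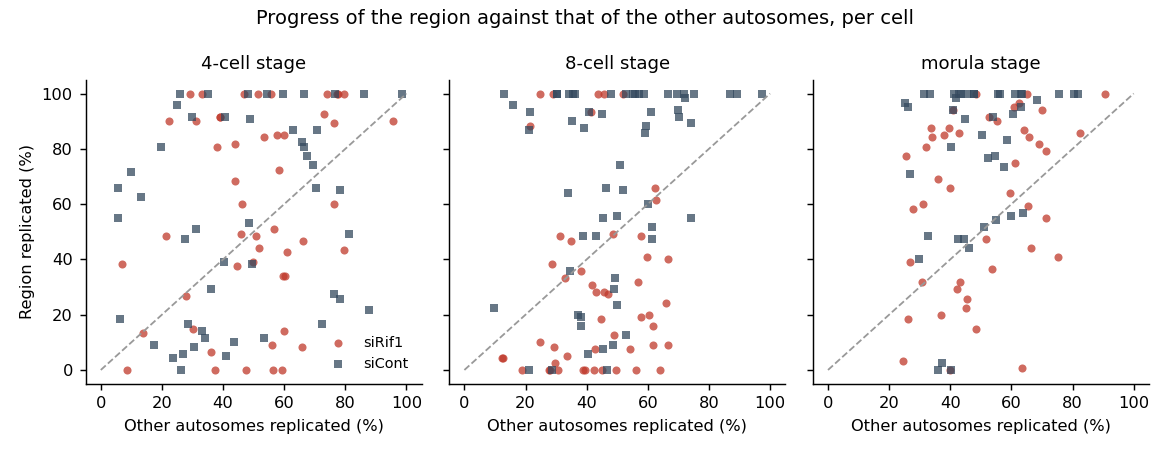
Percent of the 120 bins of the region that were replicated in each cell against the percent replicated of the other autosomes, for siRif1 (red circles) and siCont cells (dark blue squares) at the 3 stages. The dashed line marks equal progress. At the 8-cell stage 13 of 50 siRif1 and 43 of 60 siCont cells lie above it.

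The lowest shares of the middle of the region lay at different places. In siRif1 cells the lowest share from 26 to 28 Mb was 48% within 26.65 to 27.35 Mb in the 4-cell stage, 16% at 27.3 to 27.4 Mb in the 8-cell stage and 42.2% within 26.7 to 26.95 Mb in the morula. In siCont cells the lowest share was 36.7% at 27.05 to 27.35 Mb in the 4-cell stage, around Itpr3, which encodes an inositol trisphosphate receptor. It was 51.7% within 27 to 27.2 Mb in the 8-cell stage and 68.2% within 27.25 to 27.4 Mb in the morula. In siRif1 cells of the 4-cell stage this was no dip between earlier parts, since a share of 46% was reached from 25 to 26 Mb. The lowest morula shift of the region, -35.6 points, fell at 26.7 Mb, at the bin of Crebrf, a regulator of the transcription factor CREB3, with 19 of 45 siRif1 and 34 of 44 siCont cells replicated.

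At the morula stage all 120 bins again had negative shifts, with a mean of -17.1 points, but 4 of them were at least 30 points later, against 0.461% of all used bins. With cells balanced over S phase this count was 17. With a limit of 20 points, 3 bins were later at the 4-cell stage (1.24% of all used bins), 114 at the 8-cell stage (6.43%) and 43 at the morula stage (5.6%). Negative shifts were found in 50.9% of all used bins, on 54.2% of the bins of the rest of chromosome 17 and in 74.8% of autosomal protein-coding genes. Over all used bins the siRif1 profile was flatter than that of siCont at the morula and 8-cell stages. Its SD over bins was 17.3 against 25.8 points at the morula stage, and 14.7 against 19.8 points at the 8-cell stage. At the 4-cell stage it was 14.02 in siRif1 against 13.66 points in siCont. How other bins that were early in siCont shifted was not tested, so the negative shifts are not called particular to this region. The windows from 25 to 26, 26 to 27 and 27 to 28 Mb had shifts of -22.3, -24.1 and -17.7 points and ranked 32, 21 and 113 from the lowest of 2317 windows. The window from 28 to 29 Mb, deep at the 8-cell stage, had -10.7 points and ranked 441. The order of the windows within the region was therefore not the same at both stages, but whether it differs beyond counting error was not tested. The highest morula shift, -2.25 points, lay at 28.1 to 28.15 Mb, with 33 of 45 siRif1 and 33 of 44 siCont cells replicated. Negative shifts ran over all 246 used bins from 22.75 to 35.65 Mb, nearly the same stretch as at the 8-cell stage.

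At the 4-cell stage 68 of 120 bins had a negative shift, against 50.2% of all used bins, and 0 were at least 30 points later, against 0.0435%. The mean shift was -2.57 points. The distal end stood out. There the shift was -16.6 points from 29 to 30 Mb, which ranked 33 from the lowest. Its lowest bins, at -25.3 points, held the midpoints of Rnf8, a ubiquitin ligase of the DNA damage response, and Cmtr1, an mRNA cap methyltransferase, with 24 of 50 siRif1 and 34 of 49 siCont cells replicated. The highest 4-cell shift, 13.1 points, lay at 25.2 to 25.25 Mb, within the window that was among the lowest at the 8-cell stage. Unkl, Baiap3 and Gnptg have their midpoints there, the last encoding a subunit of the enzyme that tags lysosomal hydrolases.

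Borders inside the region were counted, in cells that were 20 to 80% replicated, as changes of state from one measured bin to the next (switches). Cells of the 8-cell stage had a mean of 2.23 switches in siRif1 (SD 2.00 over 47 cells) and 1.94 in siCont (SD 1.87 over 54 cells). Cells of 4-cell embryos averaged 2.41 in siRif1 and 2.24 in siCont. Morula cells averaged 2.56 in siRif1 (SD 1.55) and 1.76 in siCont (SD 1.83). Cells without any switch were 3 of 43 in siRif1 and 16 of 42 in siCont morulae, and 15 of 47 and 18 of 54 at the 8-cell stage. The median of 364 autosomal windows of 6 Mb was also higher in siRif1 than in siCont at each stage. It was 2.71 and 2.63 switches at the 4-cell stage, 2.9 and 2.61 at the 8-cell stage, and 2.49 and 2.36 in morulae. From the lowest, the region ranked 72 and 46, 16 and 25, and 206 and 56 at these stages. The differences between groups are thus not read as particular to the region.

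The position of borders was spread out. From 26.5 to 27 Mb, 8 of 105 switches fell in siRif1 cells of the 8-cell stage and 19 of 105 in siCont cells. The segment from 27.5 to 28 Mb had 1 in siRif1 and 12 in siCont, and that from 28 to 28.5 Mb had 13 in siRif1 and 5 in siCont. Borders used by 4 siRif1 cells lay at 25.85, 27.15 and 28.05 Mb, near Wdr90, Ip6k3 and Tcp11, and the most used border of siCont cells, at 26.8 Mb near Bnip1, had 5. In morulae 18 of 110 siRif1 and 5 of 74 siCont switches fell from 26.5 to 27 Mb. The most used borders of that stage had 4 cells each, at 26.8 Mb in siRif1 and 27.15 Mb in siCont. At the 4-cell stage no border was used by more than 3 siRif1 or 4 siCont cells. Counts this small carry large counting error.

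Runs of 1 state around the genes were measured in the same cells that were 20 to 80% replicated, 47 of siRif1 and 54 of siCont at the 8-cell stage. In siRif1 cells of the 8-cell stage the unreplicated run over Rps10 had a median length of 6.25 Mb (35 cells, 1.2 to 26.9 Mb), and that over Lmf1 one of 6.3 Mb. In siCont cells unreplicated runs had medians of 4.68 Mb over Rps10 (16 cells) and 3 Mb over Lmf1 (17 cells). An unreplicated run over Rps10 covered all of 25 to 28 Mb in 20 of those 35 siRif1 cells and 5 of those 16 siCont cells. A replicated run over Rps10 covered it in 5 of 12 siRif1 and 17 of 38 siCont cells.

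Other well-known genes of the region were given the shift of their midpoint bin. Of 26 such genes in 6 functional groups, all had negative shifts at the 8-cell and morula stages, as did all 179 genes of the region, while 71.9 and 74.8% of 19406 autosomal protein-coding genes did. At least 30 points later at the 8-cell stage were 137 of the 179 genes, against 3.84% of all genes. At the morula stage 6 of 179 were, against 1% of all genes, and at the 4-cell stage 0 of 179, against 0.165%, where 74 of 179 had a negative shift, against 59.6%. The median shift of the region's genes was -33.2 points at the 8-cell stage and -15.7 points at the morula stage, beside -7.49 and -8.04 points over all genes. These genes lie in 96 bins and share runs of state.

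In the growth control group (Pkd1, Tsc2, Axin1, Cdkn1a and Pim1) the median 8-cell shift was -30.5 points, with 3 of 5 at least 30 points later. Tsc2, which restrains mTORC1 signalling, was replicated in 15 of 50 siRif1 and 40 of 60 siCont cells. Axin1, a scaffold of the beta-catenin destruction complex, was replicated in 15 siRif1 and 44 siCont cells. Cdkn1a, which encodes the cell cycle inhibitor p21, had shifts of -15.3, -31.2 and -9.02 points at the 4-cell, 8-cell and morula stages.

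Among the 8 transcription and chromatin regulators the median 8-cell shift was -35.0 points, and 6 were at least 30 points later. Spdef, an ETS family factor gene, was replicated in 12 of 50 siRif1 and 44 of 60 siCont cells. Hmga1, an architectural chromatin protein gene, had a shift of -39.8 points and Sox8 one of -38.2 points. Nkx2-5, a heart development factor gene, and Phf1, which encodes a partner of Polycomb repressive complex 2, lie from 26.8 to 26.95 Mb and had -20.5 and -22.8 points. At the morula stage Nkx2-5 and Phf1 had -24.4 and -31.1 points, below the -8.97 points of Spdef. At the 8-cell stage Spdef stood below both, at -43.2 points.

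For the MAP kinase pathway group the median 8-cell shift was -33.5 points (3 of 4 at least 30 points later), with Mapk14, the gene of p38 alpha, at -34.2 and the phosphatase gene Dusp1 at -22.8 points. The channel and receptor group had -23.2 points (1 of 3), with the calcium channel gene Cacna1h at -38.8 points. The RNA-binding group had -33.2 points (2 of 3), with the spliceosome gene Snrpc at -41.5 points. The repair and apoptosis group had -28.5 points (1 of 3), with Fance, of the Fanconi anaemia pathway, at -35.5 points and Bak1, an effector of apoptosis, at -19.5 points. Morula medians of these 4 groups were -13.5, -24.5, -13.5 and -15.8 points. The lowest single bin of the 8-cell stage, at -46.5 points, held the midpoint of Taf11, a subunit of the general transcription factor TFIID, with 12 of 50 siRif1 and 46 of 60 siCont cells replicated.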

How the data were processed

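Deposited tables gave a state of 0, 1 or NA for each 50-kb bin of the autosomes in single cells, 1 table per group. Per the submitters' processing notes the authors used Bowtie2 2.5.1, SAMtools, Picard, bedtools and R 4.2.3 with build GRCm38; their roles, the calling of states and the choice of cells are not given in the sources used here. How deeply each cell was sequenced is unknown. Of 416 labelled cells, 299 had a column and were used. The value 1 was taken as replicated, since gene-dense DNA, known to replicate early, has more of it.

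Bins with at least 10 measured cells in all 6 groups were used (46015 of 49264). Shares, shifts, per-cell leads, switches and runs were computed with Python 3.11.15, numpy 2.4.6, pandas 2.3.3 and scipy 1.17.1, and the shift computation was checked on simulated data. A cell counts as replicated over a window if over 50% of its measured bins are. Intervals are exact Clopper-Pearson intervals at 95%. Genes were placed by midpoint with a RefSeq table of GRCm38.p6. Named genes were the 7 members, 26 well-known genes of the region in 6 groups, genes at the lowest and highest bins of each stage and genes nearest to the most used borders. The members and lists were chosen with earlier results of these data known. The leads, joint states of genes, runs, promoter counts and comparisons with other windows were added after seeing the data.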

Additional observations from a re-analysis of the deposited data

How the results depend on the processing

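Of 189 recomputed values, 175 stayed within a limit and 14 moved by more. The limit was the counting error of the main value, for counts of bins 1.5 times, and for switches 1 SD over cells. No shift of 30 points or more changed sign. These limits are wide. For the mean of 24 to 30 Mb the error was 20.4 points at the 4-cell and 18.2 points at the 8-cell stage. For switches it was 1.98 and 1.93. A small shift could thus change sign and still count among the 175. Requiring 30 or more cells per bin, or adjacent bins for switches, could not move a value, since each bin of the region has 44 or more. On percentile ranks the 8-cell shifts were -66.8 points (25 to 26 Mb), -63.1 points (27 to 28 Mb), -56.3 points (24 to 30 Mb) and -72.1 points (median of the 7 genes), which are on another scale. In the other settings the 8-cell mean of 24 to 30 Mb lay between -38.2 points (cells balanced over S phase) and -30.4 points (cells 20 to 80% replicated), with -38.1 points without centring, and the bins at least 30 points later numbered 105 and 66 in the first 2 of these settings. With cells in the range of S phase that both groups share (50 siRif1 and 47 siCont cells), a setting chosen after seeing the data, the mean was -32.5 points and the count 81. With a limit of 20 points, 3 bins were later at the 4-cell stage and 43 at the morula stage. With cells balanced over S phase the morula count was 17; there the class above 75% replicated holds 3 siRif1 and 3 siCont cells and weighs as much as the larger classes. The 4-cell mean of 24 to 30 Mb lay between -5.64 and 1.85 points over the settings, so its direction is not settled. No paired analysis was possible because the numbers in the labels only count cells and no test was made. Cell numbers of 44 to 60 a group limit what single bins can show, and reads per cell are unknown.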
